A study of Homo sapiens with 12 samples.

Results

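The NF-kB pathway was examined in SW480 and HCT116 through 38 named genes, all of which were found among the 17818 genes of the expression table. They were listed by name as subunits, inhibitors, kinases, receptors, adaptors and targets of the pathway, with no cut on measured values. By textbook knowledge, 19 were classed as components, 14 as components that are also established NF-kB targets, and 5 as targets outside the pathway itself. The members and this classing were chosen with earlier results of the same data known.

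SW480 and HCT116 are established human colorectal cancer cell lines, cultured in DMEM with 10% fetal bovine serum. The groups were SW480 with USP51 overexpressed (USP51-OE), SW480 with vector (NC), HCT116 with USP51 overexpressed and HCT116 with vector, with 3 libraries labelled in each. USP51 is a ubiquitin-specific protease, which removes ubiquitin from other proteins. The labels do not describe the construct, its promoter or whether a line is a clone. The values that the labels tie to a group are the authors' 4 group means, named by line with a letter C or E. The labels define neither letter. E was taken to mean overexpression and C the vector, and all directions depend on this. The USP51 levels given below were higher in E than in C in both lines. The 36 single-library columns carry codes that match no label, so no replicate spread, SD or p-value is given, and a difference between means is not shown to exceed the spread between libraries. The labels do not say whether libraries came from separate cultures, and in bulk RNA fewer cells of a type and less RNA per cell cannot be told apart.

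USP51 itself stood at 25.7 TPM in SW480 with USP51 and 0.513 TPM in SW480 NC, and at 40.8 TPM in HCT116 with USP51 and 0 TPM in HCT116 NC. Group means summed to between 15506686 and 15920306 estimated counts. The epithelial genes EPCAM, KRT8 and KRT18 lay between 381.7 and 4989.5 TPM in all groups, but KRT20 was at most 1.45 TPM, and VIL1 was under 1 TPM in both HCT116 groups. Of the 7 epithelial markers, VIL1, CDH1 and CDX2 differed from NC by more than counting error in SW480, as did EPCAM, KRT8 and KRT18, whose count ratios there were 1.09 to 1.11. VIL1 was at 12.5 TPM with USP51 and 7.55 TPM in NC in SW480 (count ratio 1.70, 95% counting interval 1.52 to 1.91). CDH1 was at 7.19 TPM with USP51 and 9.40 TPM in NC in SW480 (0.790, 0.686 to 0.910), but at 41.5 TPM with USP51 and 33.4 TPM in NC in HCT116 (1.22, 1.14 to 1.30). CDX2 was at 25.1 TPM with USP51 and 29.1 TPM in NC in SW480 (0.906, 0.825 to 0.993), with 10.4 TPM with USP51 and 10.7 TPM in NC in HCT116. Their part in the NF-kB results was not tested. Of 9 markers of leukocytes, endothelium and fibroblasts, 8 were under 1 TPM in every group, their summed level was 4.45 to 7.23 TPM, and CD68 made up most of it.

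NF-kB factors are dimers of REL-domain proteins that bind kB sites in DNA. In resting cells IkB proteins hold them in the cytoplasm. Receptors of the TNF, interleukin and Toll-like families signal through TRAF and MYD88 adaptors and ubiquitin chains to the IkB kinase, which marks IkB for destruction. A slower, non-canonical branch runs from receptors such as LTBR through the kinase MAP3K14 and CHUK to the processing of NFKB2. Many targets feed back: the pathway induces its own inhibitors, some of its subunits and its ubiquitin-editing brakes. Deubiquitinases such as CYLD and TNFAIP3 remove or edit the chains, and in colon epithelium the pathway is known for inflammatory and survival genes.

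In SW480 with USP51, several NF-kB targets stood below their NC level, while the receptors, kinases and most subunits were close to it. LTB, BIRC3, NFKBIZ, ICAM1 and IL32 were lowest relative to NC. In HCT116 with USP51 the same 5 genes were not below NC, although LTB was barely detected there. IL32 was the only member of 35 measured in HCT116 to differ by 1.5-fold, and it was higher with USP51, on few counts.

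Comparisons used log2((TPM with USP51 + 1) / (TPM NC + 1)), which understates differences of low genes. A gene was measured where either group reached 1 TPM, and was called where the ratio passed 1.5-fold, a limit on size that involves no statistical test. In SW480, 36 members were measured, and 29 of them were below NC and 7 above. Over all 12175 genes measured, 61.1% were below NC. This balance depended on the scale: in CPM with RLE factors 25 members were below NC and 12 above, and 45.7% of all genes were below. The median log2 ratio was -0.14 over these members and -0.04 over all genes. Of the members, 2 were past 1.5-fold lower (background 0.879%) and 0 past 1.5-fold higher (background 0.534%). In CPM without scaling factors the background split was 115 higher and 116 lower, beside 65 higher and 107 lower in TPM.

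The classes ran in order in SW480, as the plot of ratios by class shows. The 18 measured components had a median log2 ratio of -0.07, with 12 below NC and 6 above. This median changed sign with the setting, from -0.08 to 0.03. The 13 measured components that are also targets had a median of -0.20, with 12 below NC and 1 above. All 5 targets were below NC in TPM and CPM, and 4 of 5 in FPKM or with curated transcripts alone, with a median of -0.38, a 0.769-fold level. The differences between classes were not tested. In the further lists given below, the medians lay closer together, at -0.07 for components and -0.10 for targets.

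**Figure D1:**
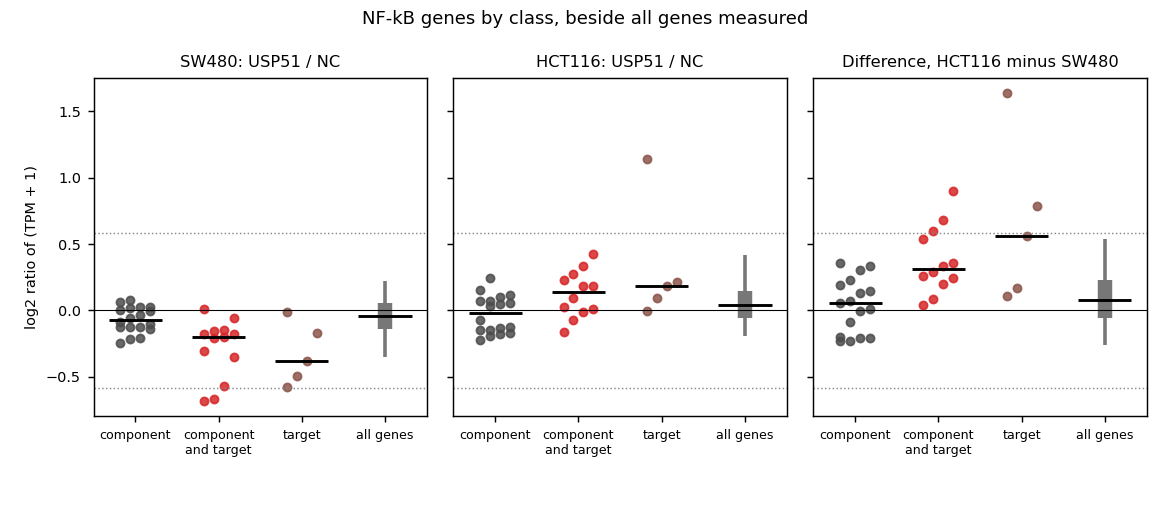
Log2 ratio of (TPM + 1) for each measured NF-kB gene (points, with the class median as a bar) by class, for SW480 with USP51 over NC, HCT116 with USP51 over NC, and the difference of these ratios, HCT116 minus SW480. Grey bars give all genes measured (thick, the middle 50%, thin, the 5th to 95th percentile, line, the median), dotted lines mark 1.5-fold, and all 5 targets lie below 0 in SW480 on this TPM scale (4 of 5 in FPKM).

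Promoter stretches are shown for some of the 12 members with a match to the kB consensus, the type of DNA element that NF-kB binds. They are BIRC3, LTB, NFKBIZ and IL32, which were among the 5 lowest in SW480, and the feedback inhibitors NFKBIA and TNFAIP3. All of those shown were below NC in SW480. For BIRC3, LTB, NFKBIZ and IL32 their choice as lowest genes fixed this in advance. The counting interval of TNFAIP3 included 1 (0.728 to 1.03). NFKB1, REL, BCL3, CFLAR, TRAF3 and TNFRSF9 also had a match but are not shown. Where measured, their log2 ratios in SW480 ran from -0.20 (NFKB1) to -0.01 (CFLAR), with TRAF3 at -0.06. ICAM1, TNFAIP2, TRAF1, MYD88 and RIPK1, which were also below NC, had no match. Whether a match goes with a lower level was not tested. The kB consensus of 10 bases was searched on both strands in RefSeq windows of GRCh38.p14, from 250 bases before to 50 after a start site for each gene. Such windows were found for 35 of the 38 members. A match lay in 9 of 12 windows of components that are also targets, 2 of 5 of targets and 1 of 18 of components. Over all 27305 promoters the share with a match was 5.72%, and over genes of at least 1 TPM in a group it was 6.62%. Genes are classed as established targets partly because such sites are known, so the classes are not independent of the motif. Capitals mark the matches below, each read 5′ to 3′ on the gene's strand and ending before the start site.
BIRC3 (chr11:102317260-102317383, plus strand): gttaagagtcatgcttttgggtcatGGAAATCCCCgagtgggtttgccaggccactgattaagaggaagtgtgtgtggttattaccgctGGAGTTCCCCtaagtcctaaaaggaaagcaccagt
LTB (chr6:31582477-31582536, minus strand): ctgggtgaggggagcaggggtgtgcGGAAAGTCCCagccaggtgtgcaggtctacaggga
NFKBIZ (chr3:101827742-101827801, plus strand): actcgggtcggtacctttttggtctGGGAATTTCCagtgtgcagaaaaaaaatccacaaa
IL32 (chr16:3065279-3065339, plus strand): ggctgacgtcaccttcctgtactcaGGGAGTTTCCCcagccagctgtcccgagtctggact
NFKBIA (chr14:35404796-35404855, minus strand): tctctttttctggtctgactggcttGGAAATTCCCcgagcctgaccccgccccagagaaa
TNFAIP3 (chr6:137867167-137867238, plus strand): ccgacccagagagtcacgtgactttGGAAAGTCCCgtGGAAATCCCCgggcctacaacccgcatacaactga

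BIRC3 had matches starting at -199 and -135 from the start site, and TNFAIP3 had matches at -67 and -55. In IL32 the consensus matched on both strands at positions 1 base apart, so its run of capitals is 11 bases long. The same overlap of strands occurred in REL and TNFRSF9. Where a window held no match, as for ICAM1, this says only that these letters are not in it. Neither a match nor its absence shows whether NF-kB bound.

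**Figure D2:**
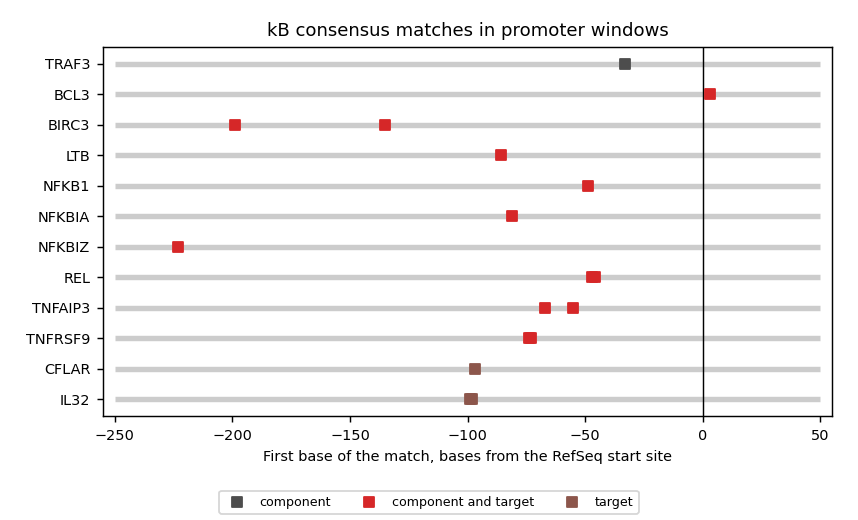
Position of each match to the kB consensus (squares, coloured by class) in the promoter windows of the 12 members with a match, as bases from the start site, with each window as a grey bar. Most matches lie within 100 bases before the start site, and BCL3 has its match at 3 bases after it.

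LTB encodes lymphotoxin beta, a membrane ligand of the TNF family that engages LTBR, and is an NF-kB target (NCBI gene 4050, chromosome 6, 31580558 to 31582425, GRCh38). LTB was at 11.03 TPM in SW480 with USP51 and 18.3 TPM in SW480 NC, on 70.7 counts with USP51 and 112 counts in NC. The ratio of counts per total count was 0.622, with a 95% exact (Clopper-Pearson) interval of 0.456 to 0.845. Such intervals treat a mean as the count of a single library and cover counting error only, not the spread between libraries, and PCR copies are not independent molecules. Both LTB transcripts in the table were lower, at 7.32 TPM with USP51 against 11.5 TPM in NC, and at 3.71 TPM with USP51 against 6.73 TPM in NC. The log2 ratio of -0.68 was -0.58 in CPM with TMM or RLE factors, just short of 1.5-fold. In HCT116, LTB was at 0.117 TPM with USP51 and 0.0567 TPM in NC, under 1 count in either mean.

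The receptors differed little from NC in SW480. LTBR, the lymphotoxin beta receptor, was at 89.5 TPM with USP51 and 89.0 TPM in NC. TNFRSF1A, the widely expressed TNF receptor, was at 55.2 TPM with USP51 and 52.9 TPM in NC, and TNFRSF1B, the more restricted TNF receptor, at 103.9 TPM with USP51 and 102.7 TPM in NC. In HCT116 with USP51, LTBR was lower, at 100.6 TPM against 117.7 TPM in NC, with a count ratio of 0.831 (0.780 to 0.884). TNFRSF1A was at 55.6 TPM with USP51 and 61.8 TPM in NC in HCT116 (ratio 0.886, 0.815 to 0.962). The interleukin-1 receptor gene IL1R1 was at 5.73 TPM with USP51 and 5.21 TPM in NC in HCT116, and under 1 TPM in both SW480 groups. TNFRSF9, a costimulatory receptor gene, was under 1 TPM in all 4 groups.

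Of the adaptors and ubiquitin ligases, BIRC3 stood apart. BIRC3 encodes a ubiquitin ligase of the TNF receptor complex that restrains MAP3K14 and protects from cell death, and is a strong NF-kB target (NCBI gene 330, chromosome 11, 102317484 to 102339403). In SW480 it was at 4.30 TPM with USP51 and 7.42 TPM in NC, on 301.7 counts with USP51 and 504.7 counts in NC (ratio 0.587, 0.507 to 0.678). Its main transcript was at 3.95 TPM with USP51 and 7.13 TPM in NC. In HCT116 it was at 1.13 TPM with USP51 and 1.11 TPM in NC (ratio 1.02, 0.728 to 1.43). Its neighbour on chromosome 11 and close paralog BIRC2 was at 19.8 TPM with USP51 and 21.8 TPM in NC in SW480, and at 27.8 TPM with USP51 and 25.9 TPM in NC in HCT116.

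TRAF1, an NF-kB-induced adaptor, was at 2.56 TPM with USP51 and 3.54 TPM in NC in SW480 (ratio 0.758, 0.589 to 0.973). The Toll-like and interleukin receptor adaptor MYD88 was at 30.2 TPM with USP51 and 36.0 TPM in NC there (ratio 0.876, 0.793 to 0.968). The signalling ligases and adaptors TRAF2, TRAF3 and TRAF6 had log2 ratios between -0.12 and 0.03 in SW480 and between -0.18 and 0.07 in HCT116. The counting intervals of all 7 adaptors and ligases included 1 in HCT116. Over all genes there, 11.7% of intervals lay below 1 and 17.1% above. That of TRAF1 was wide, at 0.803 to 2.14, on 41.3 counts with USP51 and 32.3 counts in NC.

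The kinases and their scaffold were near NC in both lines, with log2 ratios from -0.21 to 0.08 in SW480 and from -0.17 to 0.25 in HCT116. IKBKB, the catalytic subunit that drives the canonical branch, was at 9.03 TPM with USP51 and 9.66 TPM in NC in SW480, and at 11.1 TPM with USP51 and 9.20 TPM in NC in HCT116. CHUK, the other catalytic subunit, was at 13.2 TPM with USP51 and 14.4 TPM in NC in SW480. HCT116 had 33.6 TPM with USP51 and 36.8 TPM in NC. Neither catalytic subunit passed 1.25-fold in either line. The regulatory scaffold IKBKG was at 34.7 TPM with USP51 and 33.98 TPM in NC in SW480. Levels in HCT116 were 18.2 TPM with USP51 and 20.7 TPM in NC. IKBKG has a near-identical pseudogene copy, so its values are uncertain. MAP3K14, the kinase of the non-canonical branch, was at 14.4 TPM with USP51 and 15.94 TPM in NC in SW480. In HCT116 the levels were 5.18 TPM with USP51 and 5.76 TPM in NC. IRAK1 was above NC in SW480 and below it in HCT116. This kinase, which acts downstream of MYD88, had the highest TPM of the members in SW480, at 258.7 TPM with USP51 and 244.7 TPM in NC in SW480 (ratio 1.09, 1.06 to 1.12). In HCT116 it was at 63.4 TPM with USP51 and 70.3 TPM in NC (ratio 0.883, 0.833 to 0.936). RIPK1, a scaffold kinase of TNF signalling, was at 11.8 TPM with USP51 and 13.8 TPM in NC in SW480. Its count ratio there was 0.865 (0.763 to 0.980), an interval below 1. HCT116 had 19.8 TPM with USP51 and 20.8 TPM in NC. The IKK-activating kinase MAP3K7 had log2 ratios of -0.01 in SW480 and 0.05 in HCT116.

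All 5 inhibitors of the IkB family were below NC in SW480, by different amounts. On this TPM scale 61.1% of all genes measured were below NC. NFKBIZ, a nuclear IkB protein that helps switch on secondary targets (chromosome 3, 101827990 to 101861022), was at 2.92 TPM with USP51 and 4.82 TPM in NC. Its count ratio was 0.622 (0.489 to 0.789), and its log2 ratio of -0.57 lay just outside the 1.5-fold rule. NFKBIA, the classic feedback inhibitor (chromosome 14, 35401513 to 35404749), was at 60.5 TPM with USP51 and 74.98 TPM in NC (ratio 0.832, 0.759 to 0.913). NFKBIB was at 75.3 TPM with USP51 and 81.0 TPM in NC, NFKBIE at 13.5 TPM with USP51 and 15.2 TPM in NC, and the nuclear coactivator BCL3 at 5.41 TPM with USP51 and 6.24 TPM in NC, each with an interval that included 1.

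In HCT116 the same inhibitors went in both directions. NFKBIZ was at 4.17 TPM with USP51 and 3.11 TPM in NC (ratio 1.31, 1.03 to 1.68). NFKBIA was at 46.2 TPM with USP51 and 45.3 TPM in NC (interval 0.892 to 1.12). NFKBIB, at 70.5 TPM with USP51 and 80.7 TPM in NC, was on the lower side (ratio 0.889, 0.810 to 0.975). BCL3 was at 13.6 TPM with USP51 and 11.9 TPM in NC, and NFKBIE at 11.8 TPM with USP51 and 12.4 TPM in NC.

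With all transcripts summed, the 5 subunit genes differed from NC by less than 1.25-fold in both lines. RELA, the transactivating subunit of the canonical dimer, was at 78.6 TPM with USP51 and 80.7 TPM in NC in SW480, and at 79.1 TPM with USP51 and 77.1 TPM in NC in HCT116. NFKB1, its usual partner, was at 22.8 TPM with USP51 and 26.3 TPM in NC in SW480 (ratio 0.901, 0.822 to 0.987). Levels in HCT116 were 17.02 TPM with USP51 and 19.2 TPM in NC (ratio 0.855, 0.767 to 0.954). Of the counts of NFKB1, 55.3% were assigned to predicted transcripts. With curated transcripts alone its log2 ratio was 0.03 in place of -0.20 in SW480 and -0.37 in place of -0.16 in HCT116, so its direction in SW480 depends on the transcripts used. REL was at 26.2 TPM with USP51 and 29.2 TPM in NC in SW480 (ratio 0.928, 0.883 to 0.974). In HCT116 the levels were 16.9 TPM with USP51 and 15.7 TPM in NC.

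The non-canonical subunits were level in SW480 and somewhat higher in HCT116 with USP51. NFKB2 was at 35.6 TPM with USP51 and 35.2 TPM in NC in SW480, and at 51.9 TPM with USP51 and 42.8 TPM in NC in HCT116 (ratio 1.20, 1.11 to 1.30). RELB was at 24.9 TPM with USP51 and 25.9 TPM in NC in SW480. HCT116 had 7.29 TPM with USP51 and 6.06 TPM in NC (ratio 1.17, 0.912 to 1.496). Predicted transcripts held 29.4% of RELB counts, and with curated transcripts alone its log2 ratio in HCT116 was 0.54 in place of 0.23. NFKB2 had the count interval above 1 among the 5 subunits in HCT116, and NFKB1 the interval below 1.

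Among the ubiquitin-linked brakes, TNFAIP3 edits ubiquitin chains on RIPK1 and other proteins, TNIP1 is its binding partner, and CYLD is a deubiquitinase. TNFAIP3 was at 5.35 TPM with USP51 and 6.35 TPM in NC in SW480 (ratio 0.864, 0.728 to 1.03), and at 1.63 TPM with USP51 and 1.65 TPM in NC in HCT116. Predicted transcripts held 28.9% of TNFAIP3 counts, and with curated transcripts alone its log2 ratio in SW480 was -0.41 in place of -0.21. TNIP1 was at 95.1 TPM with USP51 and 107.6 TPM in NC in SW480 (ratio 0.910, 0.863 to 0.960). In HCT116 it was at 36.9 TPM with USP51 and 27.2 TPM in NC (ratio 1.34, 1.21 to 1.48), the largest log2 ratio after that of IL32, at 0.42. CYLD was at 10.4 TPM with USP51 and 12.2 TPM in NC in SW480. Levels in HCT116 were 4.92 TPM with USP51 and 4.32 TPM in NC, with 67.8% of its counts on predicted transcripts. With curated transcripts alone the log2 ratio of CYLD in SW480 was 0.02 in place of -0.21.

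Targets outside the pathway include cell surface, secreted and mitochondrial proteins. ICAM1, the adhesion molecule that leukocytes bind (chromosome 19, 10271120 to 10286615), was at 64.9 TPM with USP51 and 97.1 TPM in NC in SW480, on 1922 counts with USP51 and 2737 counts in NC. Its ratio was 0.689 (0.650 to 0.731), and its log2 ratio of -0.57 was, with that of NFKBIZ, the nearest to 1.5-fold from outside, while BIRC3 (-0.67) and LTB (-0.68) lay inside. In HCT116, ICAM1 was at 9.75 TPM with USP51 and 8.27 TPM in NC (ratio 1.16, 0.966 to 1.38).

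TNFAIP2, a TNF-induced cytoplasmic protein, was at 60.9 TPM with USP51 and 79.5 TPM in NC in SW480 (ratio 0.787, 0.747 to 0.829). It was at 34.7 TPM with USP51 and 30.5 TPM in NC in HCT116 (ratio 1.14, 1.05 to 1.23). IL32, a cytokine gene of epithelial and immune cells (chromosome 16, 3065403 to 3069530), was at 65.3 TPM with USP51 and 92.3 TPM in NC in SW480 (ratio 0.733, 0.644 to 0.835). Of its most abundant transcripts in SW480, the first stood at 16.4 TPM with USP51 and 33.5 TPM in NC, while the next stood at 20.4 TPM with USP51 and 20.7 TPM in NC. Such a split rests on how reads were assigned to overlapping transcripts.

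In HCT116, IL32 was at 3.73 TPM with USP51 and 1.14 TPM in NC, on 19.3 counts with USP51 and 6.33 counts in NC (ratio 3.23, 1.24 to 9.89). Its log2 ratio of 1.14 was 0.66 in CPM with TMM or RLE factors. The mitochondrial superoxide dismutase SOD2 was at 52.6 TPM with USP51 and 59.3 TPM in NC in SW480 (ratio 0.933, 0.896 to 0.971). In HCT116 the levels were 79.98 TPM with USP51 and 80.2 TPM in NC. Its count ratio there was 1.05, so counts and TPM differed in sign for SOD2, as they did for TRAF3, MAP3K7, IKBKB and RELA in SW480. Between control groups SOD2 had a log2 TPM ratio of -0.43 and a count ratio of 1.52 (1.45 to 1.59), SW480 NC over HCT116 NC, and IKBKB differed in sign as well (0.06 and 0.984). CFLAR, which blocks death receptor caspase activation, was at 17.9 TPM with USP51 and 18.1 TPM in NC in SW480. HCT116 had 10.7 TPM with USP51 and 9.92 TPM in NC.

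**Figure D3:**
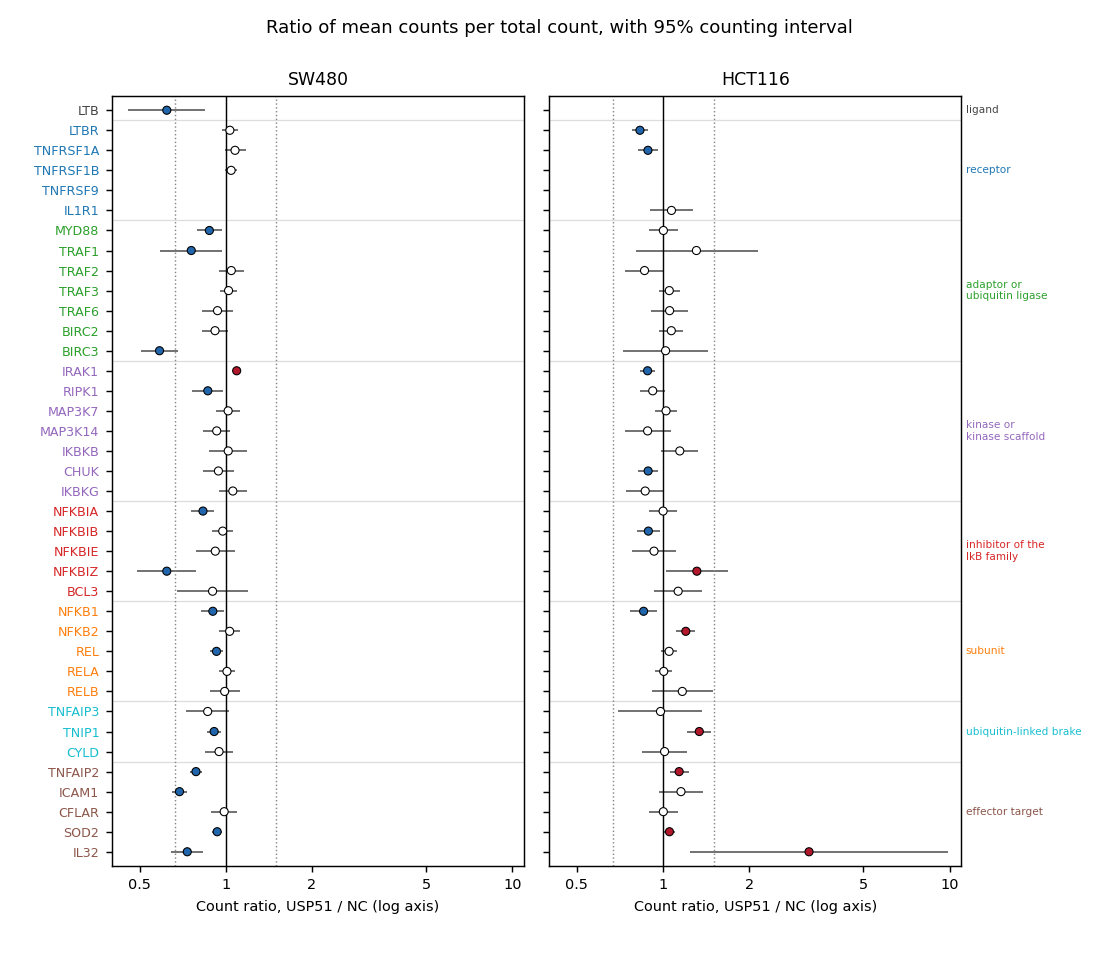
Ratio of counts per total count, USP51 over NC, for the NF-kB genes measured in SW480 and in HCT116 (points on a log axis), with the 95% counting interval as a line, ordered by role. Blue points have an interval below 1, red points above 1, dotted lines mark 1.5-fold, and BIRC3, LTB and NFKBIZ lie farthest left in SW480.

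Counting intervals lay below 1 for 14 of 36 measured members in SW480 (background 14.2%) and above 1 for 1 (background 13.6%), which was IRAK1. By class, the intervals below 1 belonged to 2 of 18 components, 8 of 13 components that are also targets and 4 of 5 targets. In HCT116, 35 members were measured, and 22 were above NC and 13 below, against 60.8% above over all 12393 genes. With TMM factors 19 members were above and 17 below, and 48.5% of all genes were above. TRAF1, at 1.003 TPM with USP51 and 0.760 TPM in NC, passed the filter through its higher group alone. Their median log2 ratio was 0.06, and that of all genes was 0.04. In HCT116 there were 0 members past 1.5-fold lower (background 0.145%) and 1 past 1.5-fold higher (background 1.96%). Intervals lay above 1 for 6 members (background 17.1%) and below 1 for 6 (background 11.7%).

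The class medians in HCT116 were -0.02 for components, 0.14 for components that are also targets and 0.18 for targets. The median of the components changed sign between settings, from -0.07 to 0.04. The 5 components with an interval below 1 in HCT116 were LTBR, TNFRSF1A, IRAK1, CHUK and NFKBIB. The difference of the log2 ratios, HCT116 minus SW480, was taken for each member with no test.

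Of 34 members measured in both lines, 20 were lower in SW480 with USP51 and higher in HCT116 with USP51, where 38.1% of all 11332 genes were. The difference of the log2 ratios was above 0 for 27 members and below 0 for 7 (65% and 35% of all genes). With TMM factors 22 members were above 0 and 13 below, and 47.3% of all genes were above, so these counts rest on the TPM scale. It reached 1.5-fold for 5 members in the direction of HCT116 (background 3.95%) and for 0 in the direction of SW480 (background 0.459%). These 5 were IL32 (1.64), NFKBIZ (0.90), ICAM1 (0.79), BIRC3 (0.68) and TNIP1 (0.60). All 12 components that are also targets, and all 5 targets, had a difference above 0, with medians of 0.31 and 0.56, but with TMM or RLE factors 10 of 12 and 4 of 5 did. The 17 components had a median difference of 0.06, with 10 above 0 and 7 below, and the median over all genes was 0.08.

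More members passed 1.5-fold between the control groups than with USP51 in either line. In SW480 NC over HCT116 NC, 19 of 37 measured members were past 1.5-fold higher in SW480 (background 22.6%) and 3 were past 1.5-fold lower (background 27%). Of the members 27 were higher in SW480 NC and 10 lower, against 46.7% and 53.3% of all genes. These counts include LTB, TNFRSF1B and TRAF1, which passed the filter of 1 TPM through SW480 NC alone. They also include IL1R1, which passed it through HCT116 NC alone, so the filter fixed the direction of these genes. The median log2 ratio was 0.69 over members and -0.08 over all 13033 genes. By class it was 0.06 for components, 0.85 for components that are also targets and 1.35 for targets.

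TNFRSF1B stood at 102.7 TPM in SW480 NC and 0.537 TPM in HCT116 NC, and IL32 at 92.3 TPM in SW480 NC and 1.14 TPM in HCT116 NC. The plots of levels show that the ligand LTB, at 18.3 TPM in SW480 NC and 0.0567 TPM in HCT116 NC, was likewise under 1 TPM in HCT116. ICAM1 was at 97.1 TPM in SW480 NC and 8.27 TPM in HCT116 NC, BIRC3 at 7.42 TPM in SW480 NC and 1.11 TPM in HCT116 NC, and RELB at 25.9 TPM in SW480 NC and 6.06 TPM in HCT116 NC. The members past 1.5-fold lower in SW480 NC were IL1R1 (0.0367 TPM, against 5.21 TPM in HCT116 NC), CHUK (14.4 TPM in SW480 NC and 36.8 TPM in HCT116 NC) and BCL3 (6.24 TPM in SW480 NC and 11.9 TPM in HCT116 NC). RELA was level, at 80.7 TPM in SW480 NC and 77.1 TPM in HCT116 NC.

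The number called depended on the fold chosen. At 1.25-fold, 7 members were lower in SW480 with USP51 (background 6.25%) and 0 higher (2.5%), while in HCT116 0 were lower (1.11%) and 3 higher (8.58%). At 2-fold, 0 were lower (0.123%) and 0 higher (0.0739%) in SW480, and 0 lower (0.0242%) and 1 higher (0.258%) in HCT116. For the difference between lines, 11 were higher (15.5%) and 0 lower (2.67%) at 1.25-fold, and 1 higher (0.591%) and 0 lower (0.0618%) at 2-fold. Between control groups, 23 were higher in SW480 NC (32.3%) and 7 lower (38.2%) at 1.25-fold, and 13 higher (13.4%) and 2 lower (14.7%) at 2-fold. LTB, TNFRSF1B, TRAF1 and IL1R1, whose direction the filter fixed, are among those counted at both folds.

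**Figure D4:**
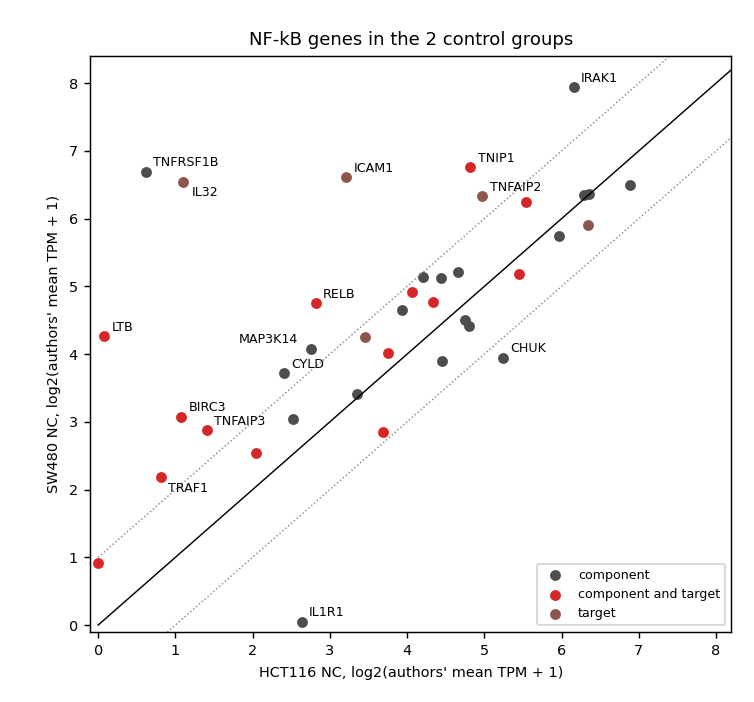
Level of the NF-kB genes in SW480 NC (vertical axis) against HCT116 NC (horizontal axis), both as log2(authors' mean TPM + 1), coloured by class. The line marks equal levels, dotted lines a 2-fold difference on this scale, and named genes lie past it, with TNFRSF1B, IL32, LTB and ICAM1 far above the line and IL1R1 and CHUK below.

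**Figure D5:**
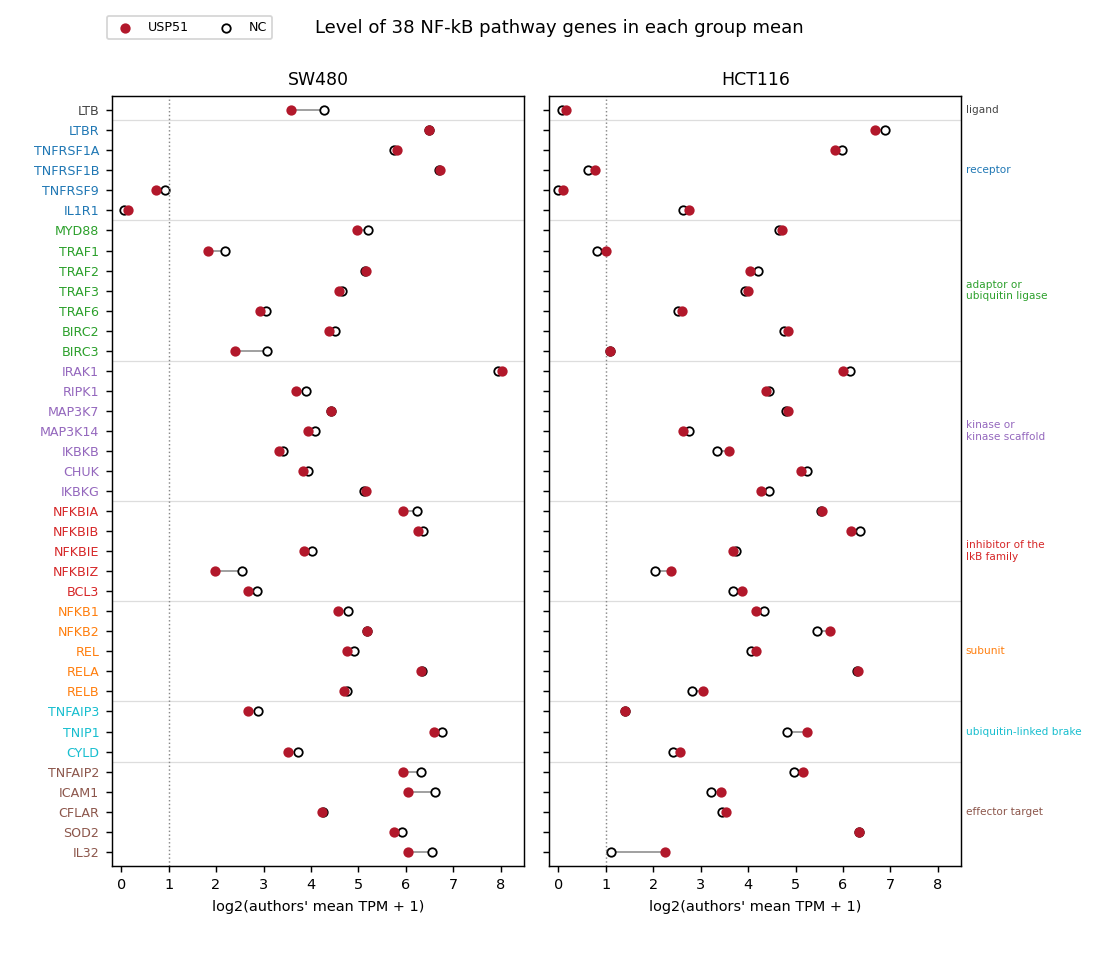
Level of each of the 38 NF-kB genes as log2(authors' mean TPM + 1), by role, with USP51 as filled red points and NC as open points, in SW480 and HCT116. The dotted line marks 1 TPM, and LTB, BIRC3, NFKBIZ, ICAM1 and IL32 show the widest gaps in SW480.

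Further lists covered the rest of the pathway, with 39 more components and 35 more targets found in the table. In SW480, 34 of these components were measured, with 21 below NC and 13 above and a median of -0.07. That is 61.8% below NC, near the 61.1% of all genes. Past 1.5-fold there were 0 lower (background 0.879%) and 0 higher (background 0.534%). The 4 that differed most were the cytokine gene TNF (2.47 TPM with USP51, against 4.18 TPM in NC), the interleukin-1 receptor partner IL1RAP (2.05 TPM with USP51 and 3.29 TPM in NC), the scaffold CARD10 (8.94 TPM with USP51 and 6.78 TPM in NC) and the paracaspase MALT1 (12.3 TPM with USP51 and 16.01 TPM in NC). Of the further targets 29 were measured, 22 below NC and 7 above, or 75.9% below, with a median of -0.10. PSMB9, an immunoproteasome subunit gene, was the target past 1.5-fold lower (background 0.879%). It was at 18.1 TPM with USP51 and 30.3 TPM in NC (ratio 0.617, 0.498 to 0.761). The cytokine gene CSF2 was at 26.5 TPM with USP51 and 39.8 TPM in NC, the laminin gene LAMB3 at 24.1 TPM with USP51 and 35.0 TPM in NC, and the urokinase gene PLAU at 7.16 TPM with USP51 and 10.5 TPM in NC.

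In HCT116, 33 of the further components were measured, with 23 above NC and 10 below and a median of 0.06, beside 60.8% above over all genes. The 4 that differed most were TLR5 (1.09 TPM with USP51, against 0.607 TPM in NC), CD40 (33.1 TPM with USP51 and 25.98 TPM in NC), CARD10 (19.9 TPM with USP51 and 15.8 TPM in NC) and TRAF5 (8.55 TPM with USP51 and 6.67 TPM in NC). TLR5 passed the filter through its USP51 group alone, so it had to be higher there, and its counting interval was 0.995 to 2.67. Of 26 measured further targets 21 were above NC and 5 below, or 19.2% below, beside 39.2% of all genes. Their median was 0.18, beside 0.04 over all genes. The share of all genes below NC depended on the scale and was 51.5% with TMM factors. LCN2, the siderophore-binding lipocalin gene, was past 1.5-fold higher (background 1.96%). It was at 10.7 TPM with USP51 and 5.66 TPM in NC (ratio 1.88, 1.20 to 2.99). The transcription factor gene KLF6 was at 63.5 TPM with USP51 and 46.3 TPM in NC, the prostaglandin synthase gene PTGS2 at 1.24 TPM with USP51 and 0.740 TPM in NC (also measured through its USP51 group alone), and the tissue factor gene F3 at 17.7 TPM with USP51 and 13.8 TPM in NC.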

How the data were processed

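Total RNA was extracted with TRIzol and sequenced on a BGISEQ platform, per the labels' protocols. TopHat, DESeq 1.32.0 and hg38 are named in the submitters' processing notes, with no role. For the counting of reads and its use of strand, nothing is given in the sources used here. Per the file headers, the authors deposited 84345 RefSeq transcripts as estimated counts, TPM (scaled by the authors to a common total) and FPKM (scaled by the authors to length and depth), each with the authors' mean per group. The 36 single-library columns carry codes that match no label and were not used, so the planned edgeR quasi-likelihood test was not run.

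Transcripts were summed per gene, and 17672 of 17818 gene identifiers were given a symbol from RefSeq (GRCh38.p14). Intervals were exact Clopper-Pearson intervals on rounded mean counts (SciPy 1.17.1), and the calculation was tested on simulated counts. Scaling factors came from edgeR 4.0.16. Members and lists were chosen with earlier results of these data known. Values in full were given for members past 1.5-fold in either line and for the subunits, IkB kinase genes, NFKBIA and TNFAIP3. Other members were named by role, and for each further list the 4 measured genes with the largest absolute log2 ratio in each line. Singling out NFKBIZ, ICAM1, TNIP1, TNFAIP2, IRAK1 and LTBR followed a look at their values. Alternatives were another pseudocount, filter, unit, scaling, transcript set or fold, of which 1.25-fold was chosen after seeing the data.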

Additional observations from a re-analysis of the deposited data

How the results depend on the processing

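No paired analysis was possible because the mean columns carry no replicate numbers. For the same reason the planned replicate block, leave-one-out, DESeq2, RLE and no-filter fits on single libraries were not run. Medians over members kept their sign under the 8 alternatives that can change a ratio or which genes are measured, from -0.15 to -0.09 in SW480, 0.01 to 0.08 in HCT116 and 0.11 to 0.22 for the difference between lines. Members past the fold in SW480 numbered 2 lower, 0 at 2-fold, 7 at 1.25-fold and 2 or 3 otherwise. In HCT116 there was 1 higher, 0 with a filter of 5 TPM, which removes IL32, and 3 at 1.25-fold. For the difference between lines 5 were higher, 2 with a filter of 5 TPM, 3 with FPKM, 1 at 2-fold and 11 at 1.25-fold. Between control groups 3 were lower, and 7 at 1.25-fold. With curated transcripts alone the log2 ratio of NFKB1 moved by more than its counting interval, to 0.03 in SW480, -0.37 in HCT116 and -0.40 for the difference. Single values were recomputed under every alternative for 13 of the 38 members.

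Counts over all genes moved by more than 1.5 times. In SW480, 65 higher and 107 lower became 150 and 225 with a pseudocount of 0.1, 42 and 68 at 5 TPM, and 9 and 15 at 2-fold. FPKM gave 59 lower, curated transcripts 162 lower, and CPM 115, 122 or 127 higher without factors, with TMM and with RLE. In HCT116, 243 higher and 18 lower became 501 and 51 with a pseudocount of 0.1, 143 higher with FPKM or at 5 TPM, 48 lower with curated transcripts, and 32 and 3 at 2-fold. For the difference, 448 higher and 52 lower became 247 and 31 at 5 TPM, 242 higher with FPKM, and 67 and 7 at 2-fold. Lower counts were 92 with a pseudocount of 0.1, 85 without a filter, 90 or 91 with TMM or RLE, and 97 with curated transcripts. A 2-fold limit or a filter of 5 TPM can only lower such counts. For the other settings the cause was not tested. IL32 in HCT116 NC rests on 6.33 counts.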
